A study of Mus musculus with 6 samples.

Results

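The Slit ligands, their Robo receptors and the srGAP proteins that act inside the cell below Robo were examined here in adult neurospheres, floating colonies of neural stem and progenitor cells, from Ts1Cje mice and disomic littermates. The 8 genes were Slit1, Slit2, Slit3, Robo1, Robo2, Srgap1, Srgap2 and Srgap3, and every probe set that the platform annotation gives to one of them alone was taken. This gave 18 of 45037 probe sets. The family was chosen by the difference in Slit2 intensity between the genotypes on these same arrays, which was known beforehand, so the differences between the genotypes are given as a description of size and spread and not as a test of the family.

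Ts1Cje mice carry 3 copies of distal chromosome 16, from just beyond Sod1 to the end, with the extra one translocated to chromosome 12, on a C57BL/6 background. The copy of Sod1 at the join is disrupted, and a segment of distal chromosome 12 is reported as lost at the translocation. The controls were disomic C57BL/6 littermates. All mice were females of 84 days. Cells of the subventricular zone, dissected with the ventricle wall it lines, were grown for 7 days, and each of 3 Ts1Cje and 3 disomic cultures gave RNA for 1 array. The study describes these as 3 littermate pairs, but the labels do not say which arrays form a pair. The main fit therefore leaves the pairing out, and a block for the replicate number is given as an alternative.

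Slits are large secreted proteins that repel migrating cells and growing axons. They bind Robo receptors on the cell surface, and srGAPs bind the cytoplasmic part of Robo and pass the signal on towards the actin skeleton. In the adult subventricular zone this system is known for steering neuroblasts towards the olfactory bulb. Slit2 from the septum and choroid plexus repels them, and neuroblasts themselves release Slit1, which acts on Robo-bearing astrocytes along their path.

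None of the 8 genes lies in the trisomic region. Robo1 (chr16:72027518-73047491, GRCm38.p6) and Robo2 (chr16:73891976-75447443) are on chromosome 16 but before Sod1, which starts at base 90220762, and so are present in 2 copies. Slit2 lies on chromosome 5 (chr5:47981291-48307735), Slit1 on chromosome 19, Slit3 on chromosome 11, and Srgap1, Srgap2 and Srgap3 on chromosomes 10, 1 and 6.

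The Slit2 and Slit3 genes each contain a copy of the gene for miR-218, a microRNA known to repress Robo1, so that ligand and regulator of the receptor share a locus. The mature sequences are shown for this link between the host genes and the receptor, 5′ to 3′, with the seed (bases 2 to 8) in capitals. The 5p strand is the same from both loci (chr5:48223966-48223986 in Slit2 and chr11:35616840-35616860 in Slit3, plus strand), while the 3p strands differ in seed. The sequences are from RefSeq, build GRCm38.p6.
mmu-miR-218-5p: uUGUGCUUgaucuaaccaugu
mmu-miR-218-1-3p: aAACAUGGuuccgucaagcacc
mmu-miR-218-2-3p: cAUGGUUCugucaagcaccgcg
No probe set on the array was annotated to either miR-218 gene (0 for each), so the arrays give no level of this microRNA.

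The promoter of Slit2 is shown because this gene had the member probe set with the largest moderated t, and that of Robo1 because it is its expressed receptor. Each runs from 250 bases before to 50 bases after 1 annotated start site (RefSeq, GRCm38.p6). That of Slit2 is at chr5:47982905-47983204 and that of Robo1 at chr16:72662899-72663198, both on the plus strand. Both genes begin upstream of the window shown, at chr5:47981291 and chr16:72027518, so neither window covers every start of its gene. Matches to TATAAA and to GGGCGG on either strand, which do not overlap each other, are in capitals.
Slit2: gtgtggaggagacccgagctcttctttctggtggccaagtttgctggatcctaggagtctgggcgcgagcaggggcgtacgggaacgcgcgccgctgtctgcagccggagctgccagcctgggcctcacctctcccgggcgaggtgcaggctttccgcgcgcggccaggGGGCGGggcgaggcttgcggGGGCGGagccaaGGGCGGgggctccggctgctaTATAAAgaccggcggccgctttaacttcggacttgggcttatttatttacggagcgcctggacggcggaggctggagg
Robo1: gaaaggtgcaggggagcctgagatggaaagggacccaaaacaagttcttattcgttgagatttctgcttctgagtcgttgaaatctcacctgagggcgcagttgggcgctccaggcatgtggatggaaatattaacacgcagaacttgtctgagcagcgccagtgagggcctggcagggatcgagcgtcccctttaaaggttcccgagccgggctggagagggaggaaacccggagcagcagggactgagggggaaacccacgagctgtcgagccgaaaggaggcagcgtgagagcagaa
The Slit2 window held TATAAA, the core of a TATA box, 28 bases before the start, and GGGCGG, a GC box, 81, 61 and 49 bases before it. The Robo1 window held neither. Of the 32851 promoter windows in the table, 13.6% held TATAAA and 35.7% held GGGCGG. The Slit2 window had 30 CpG dinucleotides, more than 88.3% of all windows, and that of Robo1 had 15, more than 65.4%. Among the other members with a window, Srgap3 held TATAAA, 72 bases before the start. GGGCGG on either strand was also in the windows of Slit3, Srgap1, Srgap2 and Srgap3, and not in those of Robo2. Slit3 had 41 CpG dinucleotides and Srgap1 had 37, more than Slit2. These matches describe the letters of the windows and were not linked to the measured levels.

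The values are log2 intensities made by the authors with gcRMA. M, the name used in the study, is the Ts1Cje mean less the disomic mean. A is the mean over all 6 arrays, and a probe set with A above 5 is called expressed. The deposited values ran from 2.23 to 15.89, and the lowest values are a floor set by the background correction. Of all probe sets, 36.4% were expressed. The 80 expressed trisomic probe sets had a median M of 0.54, in the direction of the labels, and the 428 expressed ones on chromosome 16 up to Sod1 a median M of 0.01. Controls on the array that read RNA integrity lay apart between the genotypes. The 3′ minus 5′ difference of actin was 1.53 to 1.83 on disomic and 1.87 to 2.26 on Ts1Cje arrays, that of Gapdh 2.09 to 2.28 and 2.29 to 2.44, and the mean 18S ribosomal RNA signal 10.2 to 11.7 and 12.0 to 12.4. They move with genotype like Slit2 below, and their part in that difference was not tested.

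The cultures expressed markers of neural stem cells and astrocytes, 9 of 10 on that list, among them Nes, Sox2 and Slc1a3, with Gfap as the exception. Of 11 markers of neuroblasts and neurons 6 were expressed, namely Map2 (A = 12.56), Cd24a (12.28), Sox11 (12.12), Gad1 (9.93), Nrxn3 (6.35) and Gad2 (5.68). Dcx and Tubb3, which define young neurons, were not, nor were Dlx5, Stmn2 and Rbfox3. Of the measured markers, 4 of 5 for the oligodendrocyte lineage were expressed, and 2 of 4 for transit-amplifying cells (Egfr and Mki67). Of 7 mural and mesenchymal markers 1 was, Acta2. None of the 6 choroid plexus and ependymal markers, the 5 microglial markers or the 5 endothelial markers was expressed. The summed intensity of every marker list overlapped between the genotypes, for stem cells and astrocytes with 62674 to 77307 on disomic and 70871 to 76749 on Ts1Cje arrays. Within that list Aqp4, a water channel of astrocytes, was apart like Slit2, with M = 0.81. It was the 1 of 9 expressed genes that was, while 6.12% of all expressed genes lay apart in this direction. The other genes of the list overlapped, with M from -0.19 (Prom1) to 0.31 (Slc1a2), and the list had a median M of 0.10. The part of cell makeup in the Slit2 difference was not tested. In such mixed cultures, fewer cells of a type and less RNA per cell cannot be told apart.

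Of the 3 ligands, Slit2 alone had an expressed probe set, and it was higher in Ts1Cje. Its probe set 1424659_at read 7.07, 7.40 and 7.35 (log2 intensity) on disomic replicates 1, 2 and 3, and 8.17, 8.25 and 8.15 on Ts1Cje replicates 1, 2 and 3. The lowest Ts1Cje array stood 0.75 above the highest disomic array, and the Ts1Cje arrays lay closer together than the disomic ones. The mean was 7.27 ± 0.18 (SD, n = 3) for disomic neurospheres, and that of Ts1Cje was 8.19 ± 0.05 (SD, n = 3). This is M = 0.91 with a standard error of 0.10, a fold change of 1.88 with a 95% confidence interval of 1.55 to 2.29. As the family was chosen by this difference, the interval describes it and does not test it. Among the 16371 expressed probe sets, 63, counting this one, had an M at least as high. A moderated t is the difference over its error, which limma steadied only a little across probe sets here. Counting this one, 10 had a moderated t at least as high. The residual SD of this probe set was 0.13, against a median of 0.23 over expressed probe sets, so its t also rests on a small spread. When any 1 array was left out, M stayed between 0.81 and 0.98.

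The other Slit2 probe sets stood near the floor. Probe set 1458140_at read 2.37 on 5 arrays and 2.32 on Ts1Cje replicate 1, and 1451430_at read 2.23 on 5 arrays and 2.24 on disomic replicate 2. The latter was designed from the same sequence record as 1424659_at. The difference at Slit2 therefore rests on 1 of 3 probe sets. On the whole array 3651 pairs of probe sets share a gene and a record and have at least 1 expressed probe set, and in 15.4% of them the other had A under 2.5.

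Slit1 and Slit3 stood at the floor. Slit1, the ligand known from migrating neuroblasts, had 1 probe set (1425277_at) with the same value of 2.23 on all 6 arrays, and another (1440056_at) at 2.60 on 5 arrays and 2.68 on Ts1Cje replicate 2. Slit3, which hosts the other copy of miR-218, had 1 probe set, at 2.23 on every array.

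**Figure D1:**
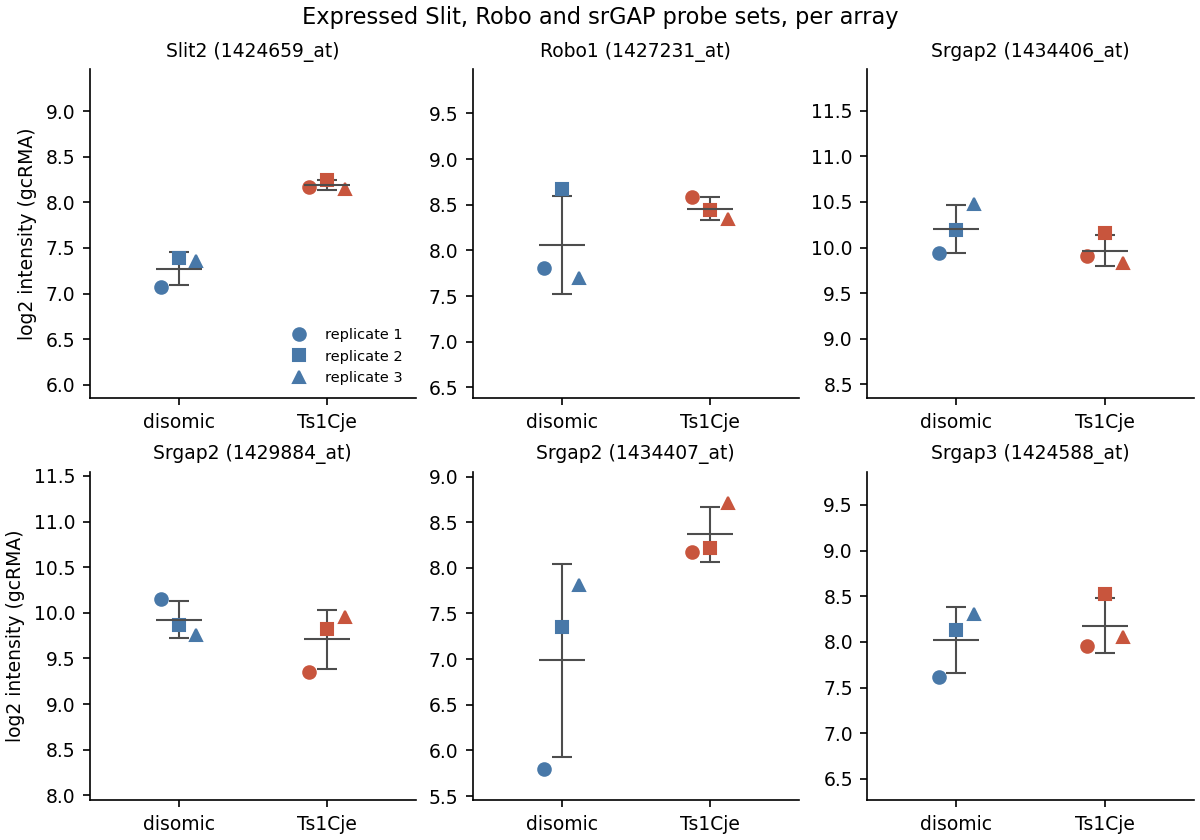
Log2 intensity of the 6 expressed Slit, Robo and srGAP probe sets on each array, with symbols for replicate numbers, a wide bar for the mean and error bars for the SD of 3 arrays. All panels span the same number of log2 units. The Ts1Cje arrays of Slit2 read 8.15 to 8.25 against 7.07 to 7.40 on the disomic arrays, and Srgap2 1434407_at is the other probe set with no overlap.

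Of the receptors, Robo1 was expressed and its groups overlapped. Probe set 1427231_at read 7.81, 8.67 and 7.69 on disomic replicates 1, 2 and 3, and 8.59, 8.44 and 8.34 on the Ts1Cje replicates in the same order. Disomic replicate 2 was the highest of the 6 arrays, while the other disomic arrays lay below all Ts1Cje arrays. The disomic mean was 8.06 ± 0.54 (SD, n = 3) and the Ts1Cje mean 8.46 ± 0.12 (SD, n = 3), with M = 0.40 and a 95% confidence interval from -0.42 to 1.22. Without disomic replicate 2 the M of Robo1 was 0.71 with a moderated t of 7.25, and without disomic replicate 3 it was 0.21. The value for Robo1 thus hangs on the disomic arrays.

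The other Robo1 probe sets, 1457407_at and 1445549_at, had the same value on all 6 arrays (2.24 and 2.23). Robo2, which acts with Robo1 in the brain, had a single probe set (1458229_at) below the expressed level, with 2.27, 2.30 and 3.09 on disomic and 3.03, 2.27 and 2.24 on Ts1Cje replicates. One array of each genotype stood above the rest. The remaining family members Robo3, known for commissural axon crossing, and Robo4, known from endothelial cells, were at the floor as well, with A of 2.23 and 2.24.

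Among the srGAPs, which link Robo to the actin skeleton, Srgap2 had the most probe sets and they disagreed. Srgap2 also bends membranes through its F-BAR domain and acts in neuronal migration. Its brightest probe set, 1434406_at, read 9.94, 10.20 and 10.47 on disomic and 9.91, 10.16 and 9.83 on Ts1Cje replicates 1, 2 and 3, with M = -0.24 and a standard error of 0.18. Probe set 1429884_at read 10.15, 9.87 and 9.75 on disomic and 9.35, 9.82 and 9.95 on Ts1Cje arrays, with M = -0.22 and a standard error of 0.21. The genotypes overlapped on both.

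The third expressed probe set of Srgap2, 1434407_at, went the other way. It read 5.79, 7.35 and 7.81 on disomic and 8.17, 8.22 and 8.72 on Ts1Cje replicates 1, 2 and 3. The genotypes did not overlap, with 0.36 between their closest arrays, and disomic replicate 1 was far below the rest. Its M was 1.38 with a standard error of 0.61 and a 95% confidence interval from -0.26 to 3.02, and 9 expressed probe sets, itself counted, had an M at least as high. Without disomic replicate 1 its M was 0.78, so this array alone carried much of the difference. Averaged over the 3 expressed probe sets, Srgap2 had M = 0.31.

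Probe sets 1434407_at and 1434406_at of Srgap2 were designed from the same sequence record, yet their M values differ by 1.62. The log2 signal of 1434407_at minus that of 1434406_at was -4.15, -2.84 and -2.66 on disomic and -1.74, -1.94 and -1.12 on Ts1Cje replicates. The pair thus lay closer on every Ts1Cje array than on any disomic one. The RNA controls given above also lay apart between the genotypes. The 18S signal (10.2) and the actin difference (1.53) were lowest on disomic replicate 1, while that of Gapdh was not. The part of RNA integrity in the shift of this pair was not tested. Among the 2326 pairs of expressed probe sets that share a gene and a record, the median difference in M was 0.14, and 1 pair, this one, differed by as much. Which transcript ends or splice forms these probe sets cover is not given in the sources used here. The remaining probe set, 1427967_at, lay between 3.32 and 3.57 on all arrays.

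Srgap3, known for its link to cognition in humans, was expressed on 1 of its probe sets with overlapping groups. Probe set 1424588_at read 7.61, 8.13 and 8.31 on disomic and 7.96, 8.52 and 8.05 on Ts1Cje replicates 1, 2 and 3, with M = 0.16 and a 95% confidence interval from -0.55 to 0.86. The spread within each genotype was wider than the difference between them. Its other probe set, 1425741_at, lay between 2.26 and 2.55. Srgap1 was not expressed, with 2.23 on all arrays for 1431719_a_at and 3.04 to 3.52 for 1442175_at.

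**Figure D2:**
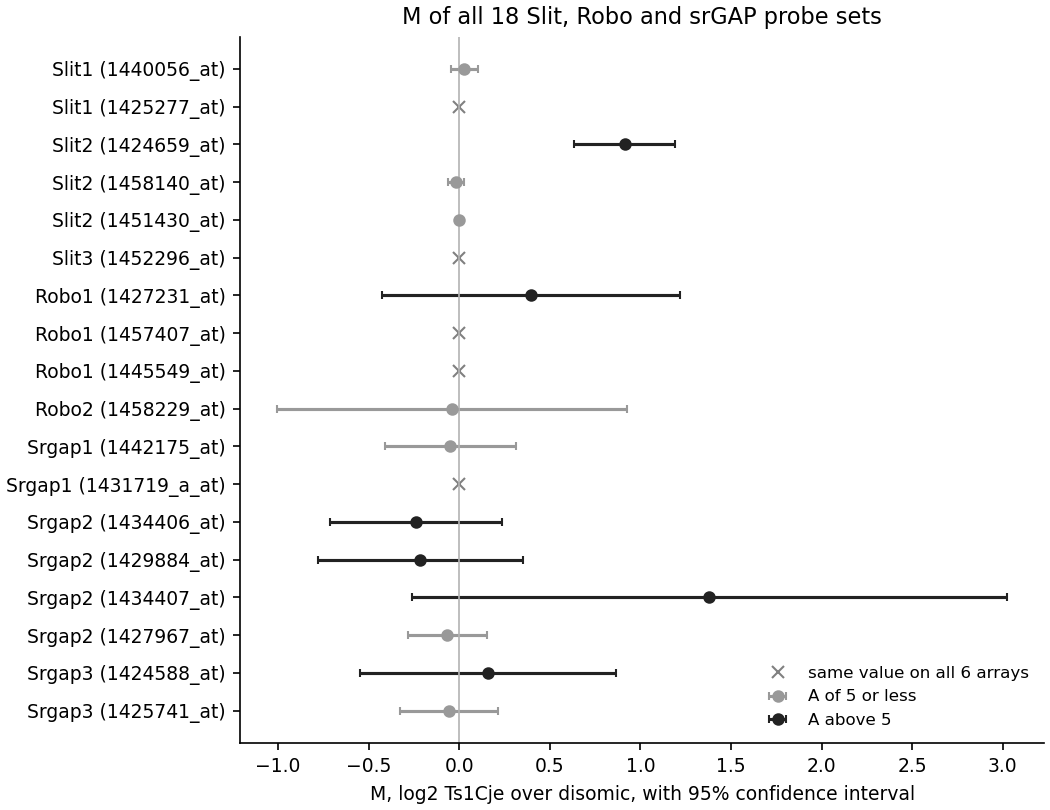
M (log2 Ts1Cje over disomic) of all 18 probe sets with 95% confidence intervals from the limma fit. Black points are expressed, grey points have A of 5 or less, and crosses are probe sets with the same value on all 6 arrays. The interval of Slit2 1424659_at, from 0.64 to 1.19, is the one among expressed probe sets that does not reach 0. The family was chosen by this difference, so the interval is a description and not a test.

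In all, 6 of the 18 probe sets, for 4 of the 8 genes, were expressed, and 5 had the same value on every array. The 12 that were not expressed had M values from -0.07 to 0.03. Of the 6 expressed ones, 4 had an M above 0 (51.6% of all expressed probe sets did) and 2 below. On 2 the groups did not overlap with Ts1Cje the higher, which held for 5.53% of expressed probe sets, and on 0 with Ts1Cje the lower (5.21%). A moderated t past 4 was reached by Slit2 1424659_at alone, against 1.78% of expressed probe sets (0.965% above 4 and 0.812% below -4), and the next in size was 2.26. In limma no member passed an adjusted p of 0.05 over all probe sets, as did 0.00222% of them, while at an unadjusted p under 0.05 there was 1 member (2.5% of all probe sets). Since Slit2 was known when the genes were proposed, nothing is read from these counts.

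**Figure D3:**
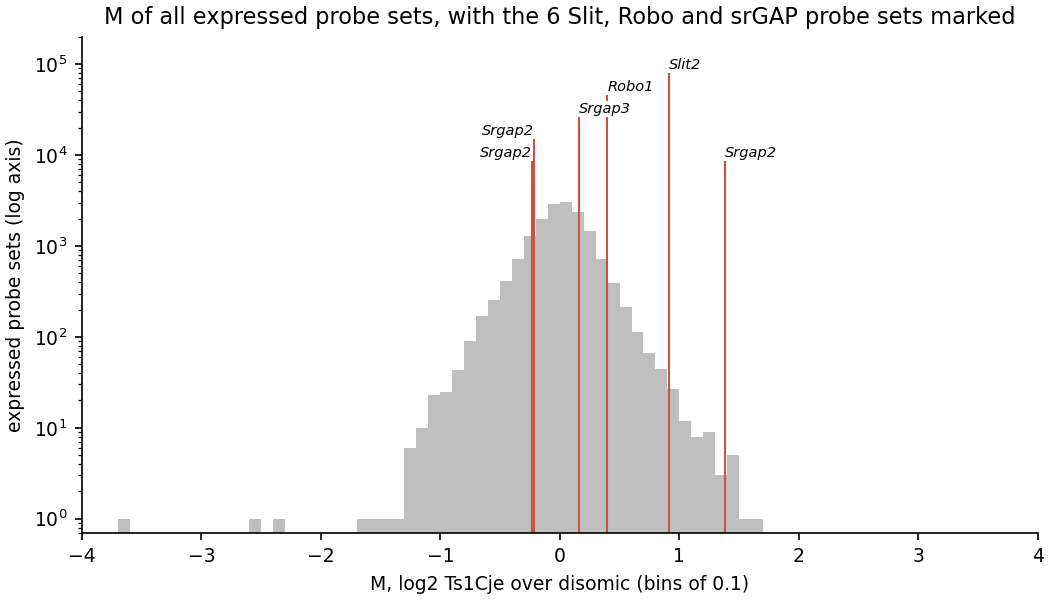
Number of expressed probe sets in bins of M of width 0.1 on a log axis, with red lines at the 6 expressed Slit, Robo and srGAP probe sets (line heights serve only the labels). Slit2 at 0.91 and Srgap2 1434407_at at 1.38 lie in the upper tail, and the other 4 in the body of the distribution. The probe set outside the axis has M = 9.21.

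The profile of Slit2 across the 6 arrays was set beside all 14609 other expressed probe sets with 1 gene name, by the mean absolute difference between their deviations from their own means. The closest were probe sets of Cdk6, a kinase of the G1 phase (1435338_at, mean difference 0.07, M = 0.96), of Ptgds, a prostaglandin D synthase (1423859_a_at, 0.08, M = 0.75), and of Epha5, a receptor for ephrin guidance cues (1444690_at, 0.10, M = 0.87). Each of these, like Slit2, had its lowest value on disomic replicate 1. Robo1 ranked 1000 by this measure, with a mean difference of 0.32. The measure is taken over 6 arrays and includes the genotype difference by which Slit2 was known.

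Other receptors and cofactors of the pathway did not pass the limit. This list holds heparan sulfate carriers and enzymes, which Slit needs to bind Robo, and proteins that handle Robo in the cell. Of its 24 measured genes 19 were expressed, with 0 past a moderated t of 4 in either direction in limma and 0 at an unadjusted p under 0.05. Of expressed genes as a whole 1.13% were above 4, 0.693% below -4 and 6.61% at an unadjusted p under 0.05. The list had 11 genes with M above 0 and 8 below (53.9% of all expressed genes were above), and its median M was 0.06, against 0.02 over all 8947 expressed genes. The largest moderated t in size belonged to Usp33, a deubiquitinase that binds Robo1 (M = -0.29), Dag1, dystroglycan, which binds Slits (M = 0.15), Extl3 of heparan sulfate synthesis (M = 0.24) and Ndfip1, an adaptor of ubiquitin ligases (M = -0.10). Nell2, a ligand of Robo3, had M = 1.08 with a standard error of 1.38 and is named after its value was seen. Cxcr4 and Cxcl12, whose signalling Slit can dampen, were not expressed.

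Genes that carry the signal below Robo were expressed throughout, 25 of 25 measured, and none passed a moderated t of 4 or an unadjusted p of 0.05 in limma. This list holds, among others, the adaptors Nck1 and Nck2, the Abl kinases and regulators of actin. Their median M was 0.07, with 15 above 0 and 10 below, and M ran from -0.33 to 0.33. Abl2, a kinase of the Abl family, had M = 0.15 and did not overlap, though its lowest Ts1Cje and highest disomic arrays both round to 9.08. Of all expressed genes 6.12% lay apart in this direction and 5.16% in the other. The adaptor Nck1 had M = -0.33, the phosphatase Ptpn11 M = 0.13, and Evl, which extends actin filaments, M = -0.33. The GTPases Cdc42 and Rac1, on which srGAPs can act, had M = -0.07 and M = -0.01.

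Guidance families beside Slit and Robo are given for comparison. The positions of their genes, and so their copy number in Ts1Cje, are not given here. Of 16 netrin and netrin receptor genes 7 were expressed, with a median M of -0.02 and 0 past a moderated t of 4 in limma. At an unadjusted p under 0.05 there was 1, Rgmb, a ligand of neogenin (M = 0.20, standard error 0.06). Ntn4, Dscam and Unc5b had M values of 0.37, 0.23 and -0.28. Dscam read 5.56 on every disomic array and 5.50, 6.31 and 5.56 on Ts1Cje replicates 1, 2 and 3. Its M thus came from Ts1Cje replicate 2. With the same value on every disomic array, as for probe sets at the floor, nothing is read from its difference, although its A was above 5. Of 34 semaphorin, plexin and neuropilin genes 20 were expressed, with 15 above 0, a median M of 0.19 and 0 past a moderated t of 4. At an unadjusted p under 0.05 in limma there was 1, Sema4d, which the count above 0 and the median take in. Sema4d here and Rgmb among the netrin genes did not overlap, with Ts1Cje the higher, which held for 6.12% of all expressed genes. Sema3c, named after its value was seen, had a moderated t of 4.16 and M = 0.48, but with A = 3.38 it was not expressed. Sema4d had M = 0.50, and with a disomic mean of 4.99 it counted as expressed only through its higher Ts1Cje arrays, so nothing is read from its difference. Sema4a, Sema4g and Sema4c, membrane-bound semaphorins of the same class, had M values of 0.28, 0.36 and 0.24. The median of the 4 expressed Slit, Robo and srGAP genes, each by its brightest probe set, was 0.28, and the difference between the lists was not tested. This median takes in Slit2 (M = 0.91), by which the family was chosen. The other genes were Robo1 at 0.40, Srgap3 at 0.16 and Srgap2 at -0.24. The median was 0.11 without disomic replicate 1 and 0.46 without disomic replicate 2.

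**Figure D4:**
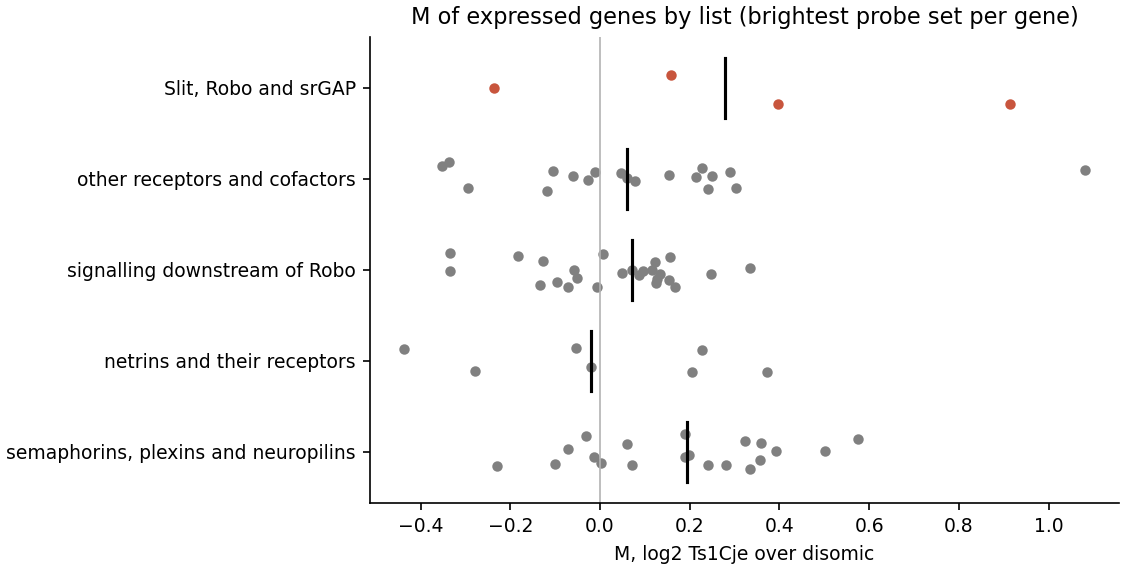
M of each expressed gene, by its brightest probe set, on the Slit, Robo and srGAP list (red) and on 4 lists of related genes (grey), with a black line at each median. The medians are 0.28, 0.06, 0.07, -0.02 and 0.19 from top to bottom, and Slit2 at 0.91 and Nell2 at 1.08 lie furthest to the right. The top median takes in Slit2, by which the family was chosen.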

How the data were processed

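RNA from 3 Ts1Cje and 3 disomic neurosphere cultures went through 2 cycles of labelling onto Affymetrix whole-genome mouse arrays. The deposited file holds log2 intensities, 1 for each probe set and array, from gcRMA as run by the authors (background from base composition, normalization between arrays, summary per probe set, version not given in the sources used here). Low signals are drawn to a common floor by this correction, so a difference at the floor cannot be seen. The number of arrays limits the precision.

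A linear model with genotype as its term was fitted to all 45037 probe sets besides controls with limma 3.58.1 in R 4.3.3 (moderated t, two-sided, p-values adjusted by Benjamini and Hochberg). The prior degrees of freedom were 0.336, so the error of a probe set comes mostly from its own 6 values. The 64 control probe sets were used to describe the arrays. Symbols are those of the platform annotation, for probe sets with a single one, and positions were taken from RefSeq (GRCm38.p6) through gene identifiers, which matched all 8 genes. The promoter table held 7 of them. Tables were made with Python 3.11.15 and pandas 2.3.3. The steps were tested on simulated data.

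The members and lists were chosen with earlier results of these data known. Named genes are all members, up to 4 expressed genes per list with the largest moderated t in size, and the 3 genes most like Slit2. For lists, the brightest probe set stands for a gene. No list was tested as a set. Alternative settings were leaving out each array, a block for the replicate number, cyclic loess, weights for arrays, an intensity trend in the prior variance, A limits of 4 and 6, and averages over probe sets. The labels name the cultures as biological replicates.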

Additional observations from a re-analysis of the deposited data

How the results depend on the processing

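M of the 6 expressed Slit, Robo and srGAP probe sets moved by less than 1 SD between replicates under each alternative that kept all 6 arrays, except for Srgap2 1434406_at, where the mean over its expressed probe sets gave M = 0.31 in place of -0.24, since it takes in 1434407_at. With single arrays left out, M ranged from 0.81 to 0.98 for Slit2, 0.21 to 0.71 for Robo1, 0.78 to 1.79 for Srgap2 1434407_at, -0.37 to -0.10 for 1434406_at, -0.34 to -0.03 for 1429884_at and -0.05 to 0.30 for Srgap3. The count of these probe sets with a moderated t past 4 ranged from 1 to 2. Slit2 passed each time, and without disomic replicate 2 Robo1 did too. It was 1 under the other alternatives, and the count with A above 5 was 6 with A above 4 or 6 as well.

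With single arrays left out, the median M of the expressed Slit, Robo and srGAP genes ranged from 0.11 to 0.46, a check chosen after seeing the data. The median M of the related lists ranged likewise from 0.01 to 0.11 for receptors and cofactors, -0.012 to 0.079 for signalling below Robo, -0.10 to 0.12 for netrins and 0.09 to 0.25 for semaphorins. Samples with the same replicate number did not deviate together (correlations of -0.17, -0.03 and 0.13 over expressed probe sets). With the replicate block the M of Slit2 was 0.91 and the count past 4 was 1, so the block changed no call. Signal near the floor leaves Slit1, Slit3, Robo2 and Srgap1 with no measured difference, which does not show that they are unchanged.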
